A study of Mus musculus with 4 samples.

Results

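The 59 miRNA names from miR-6896 to miR-7094 were described in exosomes, the small membrane vesicles that cells release, of BV2 cells, an immortalized mouse microglial line. Members were chosen by name alone, as every listed name in that run of numbers, with either arm suffix. They made up 59 of the 603 names listed for the libraries and came from 56 precursors. All cells were labelled wild type. The control group (2 libraries) was held for 2 h at 37 °C. The HS group (2 libraries) was heated at 42 °C for 2 h and rewarmed at 37 °C for 12 h, although the study's results section gives a shorter recovery. No label says whether the replicates were separate cultures, so the spread between them may be technical.

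This block of names is the one in which most entries are mirtrons. A mirtron is a short hairpin cut out of a messenger RNA precursor as an intron or as its tail. Splicing takes the place of the nuclear enzyme Drosha, which frees the hairpin of an ordinary miRNA precursor, and the cytoplasmic enzyme Dicer then cuts both kinds. In a conventional mirtron the 5p arm starts at the first base of the intron (usually GU) and the 3p arm ends at its last base (usually AG). In a 5′-tailed mirtron only the 3p arm reaches the intron end, and the extra bases on the other side are trimmed. Like other miRNAs, a mirtron product pairs with target messages through its seed, bases 2 to 8.

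RefSeq (GRCm38.p6) held a mature sequence for 54 of the 59 members. The sequences below belong to some of the members on which the comparison of HS with control turned, which also include miR-6952-3p and miR-6981-5p, and to the only pair with a common seed. They run 5′ to 3′, and the capitals mark the seed.
miR-7068-5p: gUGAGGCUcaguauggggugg
miR-7068-3p: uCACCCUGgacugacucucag
miR-7043-3p: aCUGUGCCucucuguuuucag
miR-6988-3p: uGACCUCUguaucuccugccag
miR-7013-3p: cCACACUUacuguugccucuuccu
miR-7059-5p: aCCGGGGAcugcggcuuucagu
miR-6945-3p: uCUGAGCUcugcccuucccau
miR-7070-5p: gUGAGGGGagcugaggcagga
miR-6922-5p: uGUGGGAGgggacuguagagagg
miR-7008-5p: uGUGGGAGaugccaggagccguac
The 54 sequences held 53 different seeds. Only miR-6922-5p and miR-7008-5p had one in common, and no listed name outside the block carried it. The 5p sequences were rich in G, with a median of 45.5% over 29 names against 28.6% over the 198 listed 5p names outside the block. The 3p sequences were rich in C and U, with a median of 69.6% over 25 names against 54.5% over 182. In the listed names from miR-1000 to miR-6895 the median G was 31.8% over 27 5p names. Their median of C and U was 65.0% over 22 3p names, nearer to the block. These contrasts can be read in miR-7070-5p, with its runs of g, and in miR-7043-3p, with its stretch of c and u before the closing ag.

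The label of the block was checked against gene structure in GENCODE M21. All 54 members with a sequence lay inside an intron of a coding gene on the same strand, compared with 192 of 443 listed names outside the block (43.3%). Among the listed names from miR-1000 to miR-6895 it was 52 of 87 (59.8%). Of the 25 members from a 3p arm, 23 (92.0%) ended within 2 bases of the last base of the intron, and 19 ended exactly on it. Outside the block this held for 12 of 182 (6.59%), but only 79 of the 182 lay in such an intron at all. Among listed names from miR-1000 to miR-6895 it held for 7 of 22 (31.8%), and 17 of the 22 lay in such an intron. The 2 exceptions among the 25 members were miR-7013-3p, which stopped 3 bases short of the intron end, and miR-6936-3p, which stopped 16 bases short. The final bases were AG in 19 of the 25 (76.0%) against 11 of 182 (6.04%) outside, and 6 of 22 (27.3%) from miR-1000 to miR-6895.

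The 5p arms were different. Only 4 of 29 (13.8%) began at the first base of the intron, namely miR-7068-5p, miR-7070-5p, miR-7060-5p and miR-7091-5p, and these 4 were the members that opened with GU. The introns had a median length of 461 bases, from 66 to 5126, and 19 of the 54 members lay in an intron shorter than 150 bases. The intron's end was thus reached by most of the 3p names. The 5p names, which lie upstream of the 3p arm and so are not placed to reach it, ended a median of 40 bases before it. A short intron did not hold for most of the 54. The median host intron of the listed names outside the block was 5392 bases, and that of names from miR-1000 to miR-6895 was 2695. The plot of distances to the intron's ends shows where the members of both arms lay.

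The host genes of the printed members were of varied function. Both arms of miR-7068 came from intron 4 of Cherp, an RNA processing and calcium-handling gene, an intron of only 74 bases on the minus strand of GRCm38. The 5p arm lay at chr8:72470069-72470089, against the start of the intron, and the 3p arm at chr8:72470016-72470036, against its end. miR-6988-3p (chr19:6051371-6051392, plus strand) closed the 82-base intron 11 of Syvn1, which encodes a ubiquitin ligase that clears misfolded proteins from the endoplasmic reticulum. miR-7070-5p (chr8:85062086-85062106, plus strand) opened the 86-base intron 2 of Fbxw9, an F-box gene.

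Other members sat in longer introns. miR-7043-3p (chr6:116645978-116645998, minus strand) closed the 1589-base intron 4 of Rassf4, a Ras-association gene. miR-6945-3p (chr13:55507627-55507647, minus strand) lay 2 bases from the end of intron 5 of Pdlim7, and miR-7013-3p (chr3:95004213-95004236, plus strand) lay in the 5126-base intron 8 of Pi4kb, a phosphatidylinositol kinase. miR-7059-5p (chr7:126579506-126579527, minus strand) was in intron 6 of the lysosomal gene Cln3, and miR-6922-5p (chr11:60202300-60202322, minus strand) in intron 12 of Srebf1, a regulator of lipid synthesis. The sequence of miR-6967-3p occurred at 2 loci, in Kifc5b and in Kifc1, and its reads cannot be assigned to either. The messages of these hosts were not measured.

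Whole reads were recovered from the deposited values, which had been scaled by library. Listed names drew 96516 and 121503 reads for the controls, replicate 1 first, whereas HS gave 42091 and 113966. HS replicate 1 stood apart. It listed 228 names with a read against 420 to 444 in the other libraries. Across the 376 names with at least 10 reads in total, its Spearman correlation with them was 0.599 to 0.680, against 0.786 to 0.814 among the others. It held no reads of miR-142a-3p, a marker of blood-derived cells, which had 17 and 3 reads in the controls and 3 in HS replicate 2. All other names of the myeloid list below were read in HS replicate 1. There miR-142a-5p had 33 reads, miR-155-5p 26, miR-146a-5p 533, miR-21a-5p 114 and miR-223-3p 3. Of the stromal list, miR-199a-3p and miR-145a-5p had no reads there and miR-143-3p had 5. A list of 6 myeloid names took 6.76% and 2.96% of reads in the controls and 1.68% and 3.80% in HS, and a list of 3 stromal names 3.06%, 1.19%, 0.0119% and 0.876%. Values without HS replicate 1 are given beside the results on members that it moved most. The part of these differences in the results was not tested.

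Members of the block were read at the edge of detection. Of the 59 names, the controls detected 25 (42.4%) and 21 (35.6%), and each HS library detected 18 (30.5%). Among the 544 names outside the block, 76.1%, 77.8%, 38.6% and 73.9% were detected in the same order. Among listed names, the drop in HS replicate 1 was thus large for the other names and small for the block. Every listed name had at least 1 read in some library, so these percentages are of names already detected. Of the 18 members in HS replicate 1, 10 were read there alone, so the contrast depends in part on how names came to be listed. RefSeq held 355 names in the block. Thinned to the 42091 reads of HS replicate 1, the controls would be expected to show 20.8 and 17.8 members and HS replicate 2 13.2, beside the 18 seen there. For the other names the thinned values were 370, 369 and 351 beside 210.

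The counts behind these detections were small. Over the 4 libraries the median member had 5 reads and the highest, miR-7043-3p, had 44, whereas the names outside the block had a median of 20 and a maximum of 43458. Only 10 and 16 members exceeded 3 reads in the controls and 12 and 8 in HS. A count of 10 or more was reached by 0 and 5 members in the controls and by 3 and 1 in HS. A name without reads may still be present at up to 3 reads, or 2.51 and 2.03 normalized counts in the controls and 7.25 and 1.99 in HS. In shares of listed reads these limits were 0.00311%, 0.00247%, 0.00713% and 0.00263%. Both these limits and the intervals that follow hold counting error alone, because PCR copies of a molecule are not independent. The fold bounds given below set the limits of the group without reads against the mean normalized count of the other group, taken as exact.

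All members together had 102 and 147 reads in the controls and 129 and 71 in HS. Their share of listed reads was 0.106% in control replicate 1 (95% Wilson interval 0.0871 to 0.128) and 0.121% in control replicate 2 (0.103 to 0.142). In HS it was 0.306% in replicate 1 (0.258 to 0.364) and 0.0623% in replicate 2 (0.0494 to 0.0786). The HS libraries were therefore the highest and the lowest of the 4, with intervals that did not meet, and the controls lay between them. No direction of the block as a whole could be given for HS. With 2 libraries a group, the smallest exact two-sided permutation p is 0.333. HS replicate 1 had the highest share also for names from miR-1000 to miR-6895 (9.44% against 2.99% to 5.18%) and for names from miR-7095 upward (0.535% against 0.139% to 0.219%).

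**Figure D1:**
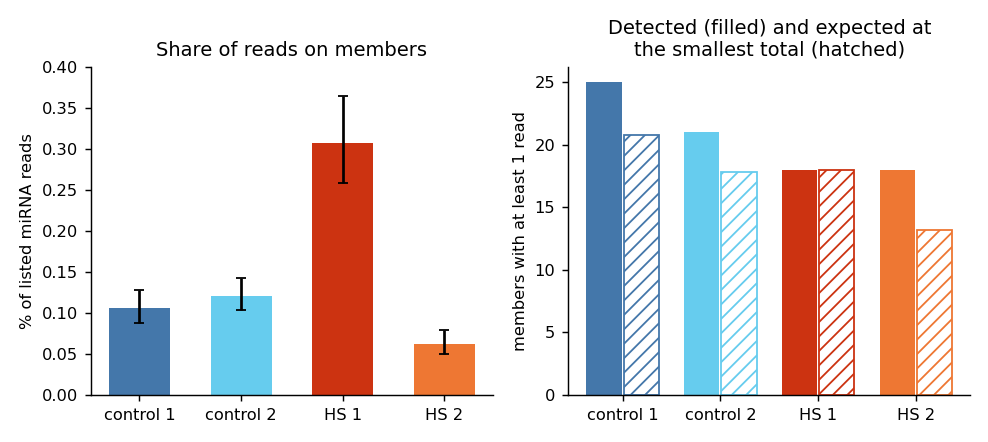
Share of listed reads on the 59 members in each library (percent, 95% Wilson interval) and the number of members with at least 1 read. Filled bars give the members detected and hatched bars the number expected at the total of the smallest library. HS replicate 1 has the highest member share (0.306%) and HS replicate 2 the lowest (0.0623%). The members detected number 25 and 21 in the controls and 18 in each HS library.

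Which names were read varied from library to library. Of the 59 members, 41 (69.5%) had reads in 1 library alone, compared with 136 of 544 names outside the block (25%). The gap was narrower among names of like totals. Among names with under 10 reads in total, 37 of 43 members (86.0%) and 121 of 184 other names (65.8%) were in 1 library. Within those other names it was 31 of 41 (75.6%) from miR-1000 to miR-6895 and 17 of 19 (89.5%) from miR-7095 upward. Among names with 10 to 44 reads, 4 of 16 members (25%) and 12 of 147 other names (8.16%) were in 1 library. For the names from miR-1000 to miR-6895 alone it was 8 of 32 (25%). The single-library members were spread over the libraries, with 12 and 8 in the controls and 10 and 11 in HS.

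By group, 27 members (45.8%) were read in control only, 22 (37.3%) in HS only and 10 (16.9%) in both. Outside the block the same shares were 22.4%, 9.56% and 68.0%. Of the 27 control-only members 7 had reads in both control libraries, and of the 22 HS-only members 1 did in both HS libraries, miR-7068-5p. Outside the block these counts were 34 of 122 and 4 of 52. Without HS replicate 1 the HS-only count dropped to 12 and the control-only count was 31. miR-7043-3p was the single member with reads in all 4 libraries.

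**Figure D2:**
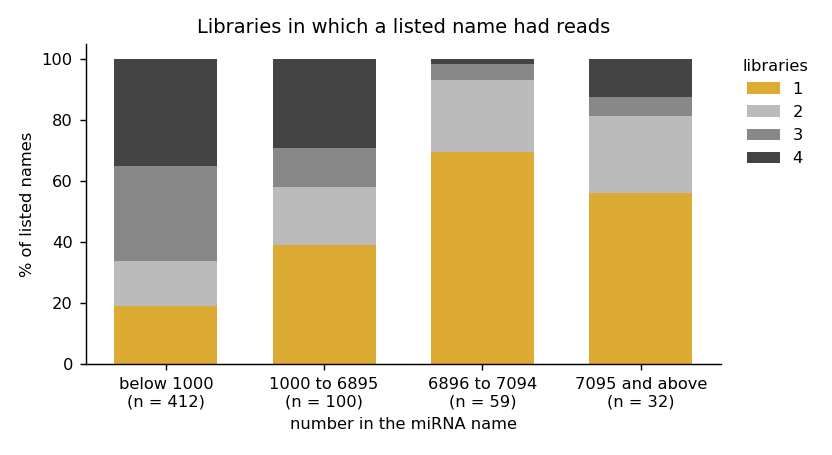
Percentage of names with reads in 1, 2, 3 or 4 libraries, for the block and for the other number ranges. In the block 69.5% of names are in 1 library and 1.69% in 4, against 25% and 32.5% of all names outside it.

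Between the 2 arms, 3p names carried more of the block's reads. The list held 31 names of 5p arms and 28 of 3p arms, and their reads summed to 177 and 272. Reads of 5p names made up 30.4% (95% Wilson interval 22.3 to 39.9) and 41.5% (33.8 to 49.6) of member reads in the controls. In HS they made up 38.8% (30.8 to 47.4) and 49.3% (38.0 to 60.7). In names outside the block the 5p share was 55.0% to 58.3%, above the value of the block in each library, though within its interval in HS replicate 2. Without miR-7043-3p the 5p share of the block was 30.7%, 44.9%, 47.2% and 56.5%, which in HS replicate 2 was close to that of the other names. Both arms were listed for 3 of the 56 precursors (5.36%), compared with 131 of 413 precursors outside the block (31.7%). These shares were not matched for reads, of which the median name had 5 in the block and 20 outside it. The names outside also include 74 without an arm suffix. Reads on a name that began or ended within 2 bases of the intron's edge were 73 of 88 placed reads (83.0%) and 69 of 107 (64.5%) in the controls, and 72 of 126 (57.1%) and 46 of 71 (64.8%) in HS.

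miR-7068 was the only precursor of the 3 with more than 9 reads, and its 5p arm was read in one group while its 3p arm was read in both. The 5p arm had 0 reads in both controls and 3 and 10 reads in HS replicates 1 and 2. The 3p arm had 7 and 2 reads in the controls and 0 and 6 in HS. The 5p arm thus had reads in HS alone, while the 3p arm was missing only from HS replicate 1. Pooled by group, the 5p arm made up 0 of 9 reads in control (exact 95% interval 0 to 33.6%) and 13 of 19 reads in HS (68.4%, 43.4 to 87.4). These intervals come from pooled reads and hold no spread between libraries, so no test of the groups is given. miR-7086, in an intron of the interleukin-10 receptor gene Il10ra, had 3 reads of its 5p arm in HS replicate 1 and 6 of its 3p arm in HS replicate 2. miR-7091, in a 79-base intron of Dnase1l1, had 4 reads of its 5p arm and 3 of its 3p arm in control replicate 2 and 1 read of the 5p arm in HS replicate 1.

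Whether the members differed between HS and control could be tested for 16 of the 59, those whose reads over the 4 libraries came to 10 or more. The other 43 had fewer. limma was used on log2(normalized count + 1) over all 376 names that met the minimum, a scale on which a fold understates the change of low names. By the study's criterion, a change over 2-fold with an unadjusted p under 0.05, 5 of the 16 were called, 1 higher and 4 lower in HS. The background was 8.24% of all names tested, 1.60% higher and 6.65% lower. With TMM scaling, the calls over all names were 9 higher and 21 lower, against 6 and 25 in the comparison given here. The adjusted p was under 0.05 for 0 of the 376 names, and the lowest was 0.516 by limma with the Benjamini-Hochberg method. The lowest was 0.108 by DESeq2 and 0.150 by edgeR, so that these made 0 such calls too. Among the members, 5 had an unadjusted p under 0.05 by limma and 1 by each of the other tools. In pooled vesicles, fewer vesicles with a miRNA and fewer copies per vesicle cannot be told apart.

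The 5 calls had one feature in common. In each, one group had no reads in either library, so that the read minimum was passed through the other group alone and the name had to differ. The same was true of 9 of the 16 tested members, and their number carries no weight. On recovered reads, DESeq2 called 1 of the 16, against a background of 7.71%, and edgeR's quasi-likelihood test called 1, against 8.51%. In both it was miR-7013-3p, a name with all its reads in 1 library, and none of the 5. Across the 16 the median log2 fold change was 0.76 in HS over control, with 9 higher and 7 lower, while the median over all 376 names was −0.65. The median of the members changed sign without HS replicate 1 (−0.99), without control replicate 1 (−0.26, 7 higher and 9 lower) and over all 59 members with no read minimum (−0.06).

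HS and control libraries did not overlap for 6 of the 16. HS was above in 2 (12.5%, against 12.5% of all names tested) and below in 4 (25%, against 32.4%). Neither share stood apart from the background as a result about the members, and the 4 passed the read minimum through control alone. For the other 10 the libraries overlapped. The plot of tested members by library shows how often the high value was that of HS replicate 1.

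**Figure D3:**
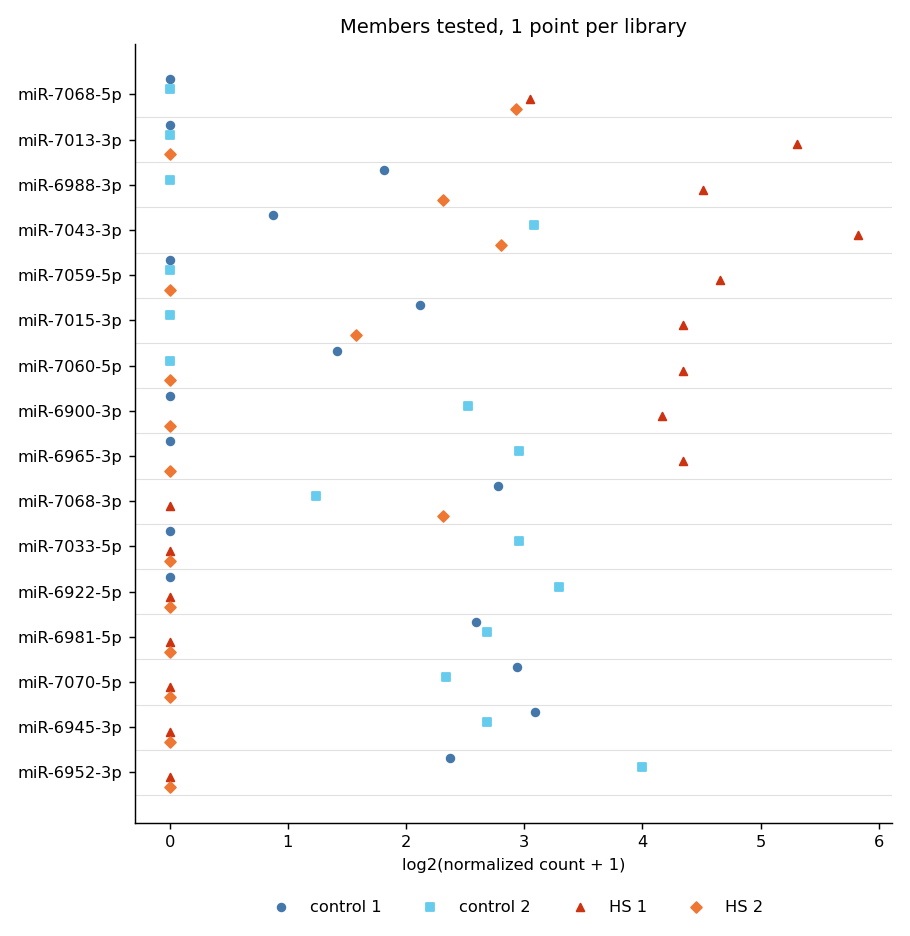
log2(normalized count + 1) of the 16 tested members, with 1 point per library, ordered from the highest to the lowest log2 fold change in HS. Both HS points are right of both control points for miR-7068-5p and miR-6988-3p, and in the lowest 4 rows both HS points are at 0.

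Of the members with a higher fitted value in HS, miR-7068-5p was the one called. Its normalized counts were 0 and 0 in control and 7.25 and 6.64 in HS, and both HS libraries were above both controls. The log2 fold change was 2.99 ± 0.71 (SE, n = 2 a group, limma adjusted p = 0.516). Set against a limit of 3 reads per control library, it was at least 3.06-fold higher in HS. Without HS replicate 1 the bound was 2.92, and with HS replicate 2 left out there was none. Its 3 reads in HS replicate 1 equal the detection limit of that library.

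miR-6988-3p, from the last bases of the Syvn1 intron, had 3 and 0 reads in control and 9 and 6 in HS. Both HS libraries were higher than both controls after scaling. The log2 fold change of 2.51 ± 1.20 did not pass (limma adjusted p = 0.617), and the ratio of reads pooled by group, each sum divided by the summed size factors of its libraries, was 6.96 (exact 95% counting interval 1.97 to 37.5). miR-7043-3p, the most abundant member, had 1 and 11 reads in control and 23 and 9 in HS. Its normalized counts were 0.836, 7.46, 55.6 and 5.97, so that HS replicate 1 was far above the rest while HS replicate 2 fell between the controls. Group means were 4.15 ± 4.68 and 30.8 ± 35.1 (SD, n = 2), with a log2 fold change of 2.33 ± 1.46 (limma adjusted p = 0.621). Without HS replicate 1 the log2 fold changes of miR-6988-3p and miR-7043-3p were 1.41 and 0.82.

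Several members were high through HS replicate 1 alone. miR-7013-3p had 16 reads there and 0 in the other 3 libraries, where 46.3, 57.1 and 58.3 reads would have matched its level. miR-7059-5p had 10 reads there and 0 elsewhere. For neither did the groups separate, since HS replicate 2 lay at 0 with the controls. Their log2 fold changes were 2.66 ± 1.94 and 2.33 ± 1.74 (limma adjusted p = 0.621 for both). Against the limit of 3 reads per control library they were at least 8.52-fold and 5.32-fold higher over the HS mean, and without HS replicate 1 no bound remained. For miR-7013-3p the log2 fold change by DESeq2 was 7.11 (adjusted p = 0.594) and that by edgeR 7.12 (adjusted p = 0.508).

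miR-7015-3p, from an intron of Smap2, had 4 and 0 reads in control and 8 and 3 in HS. miR-7060-5p, from the start of an intron of Fbrs, had 2 and 0 in control and 8 and 0 in HS. In both the groups overlapped, HS replicate 1 being the highest library. The log2 fold changes were 1.90 ± 1.38 and 1.46 ± 1.71 (limma adjusted p = 0.621 and 0.729). Without HS replicate 1 they were 0.52 and −0.71, so that miR-7060-5p turned negative. miR-6965-3p and miR-6900-3p were each read in control replicate 2 (10 and 7 reads) and HS replicate 1 (8 and 7 reads) and in neither of the other libraries. Their fitted values of 0.69 ± 1.93 and 0.82 ± 1.80 turned negative without HS replicate 1, at −1.48 and −1.26. The groups overlapped in both.

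The 4 members called lower were all read in both controls and in neither HS library. miR-6952-3p had 5 and 22 reads in the controls, for a log2 fold change of −3.18 ± 0.90. miR-6945-3p had 9 and 8 reads, for −2.89 ± 0.72. miR-7070-5p had 8 and 6 reads and miR-6981-5p 6 and 8, for −2.64 ± 0.74 and −2.64 ± 0.71. In each the controls were above both HS libraries, and the limma adjusted p was 0.516 for all 4. miR-6952-3p was no longer called when either HS library was left out.

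The size of these differences could be bounded only loosely. Against a limit of 3 reads per HS library the 4 were lower in HS by at least 2.07-fold (miR-6952-3p), 1.40-fold (miR-6945-3p), 1.16-fold (miR-7070-5p) and 1.13-fold (miR-6981-5p). Without HS replicate 1, whose limit alone is 7.25 normalized counts, these bounds became 4.80, 3.25, 2.70 and 2.62. Without HS replicate 2 a bound of 1.32 could be given for miR-6952-3p and none for the others. Without control replicate 2, which held 22 of its 27 reads, miR-6952-3p had no bound either, and without control replicate 1 its bound was 3.23. Below the read minimum, miR-6970-5p (3 and 5 reads), miR-6896-5p (3 and 4) and miR-6911-3p (3 and 2) were likewise read in both controls and not in HS.

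The other tested members with lower fitted values had overlapping groups. miR-6922-5p had 13 reads and miR-7033-5p 10 reads in control replicate 2 and none elsewhere, for log2 fold changes of −1.65 ± 1.33 and −1.48 ± 1.23 (limma adjusted p = 0.621 for both). Left with that control alone, both were called. No bound on the fall could be given with all libraries. miR-7008-5p, which has the seed of miR-6922-5p, had 2 reads in all. The 3p arm of miR-7068 had a log2 fold change of −0.85 ± 1.18 (limma adjusted p = 0.768), which became 0.31 without HS replicate 1.

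**Figure D4:**
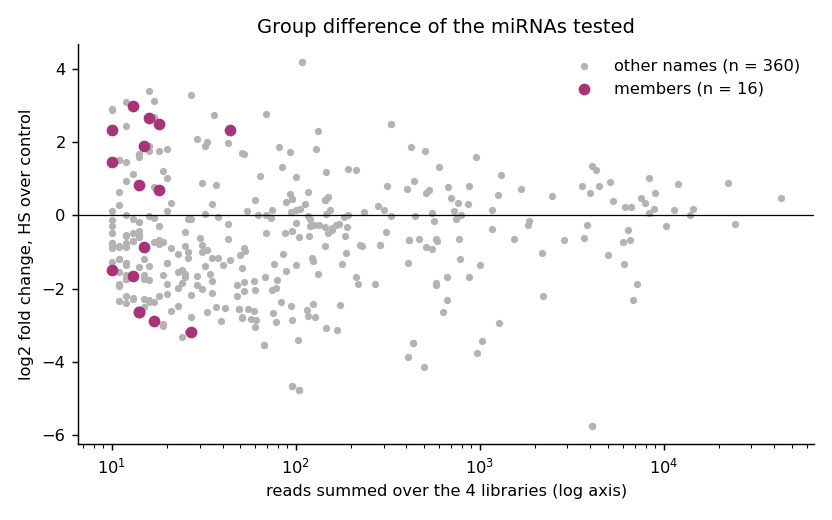
log2 fold change in HS over control against the reads summed over the 4 libraries (log axis) for all 376 names tested, with the 16 members marked. Members lie between 10 and 44 reads, with fold changes from −3.18 to 2.99.

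Members with several reads in 1 library and none in the others were found in each library. Of the 41 members read in 1 library, 18 had at least 5 reads there, of which 4 and 6 were from the controls and 6 and 2 from HS. HS replicate 1 held miR-7013-3p, miR-7059-5p, miR-6987-5p, miR-7003-5p, miR-7026-3p and miR-7063-5p, with 5 to 16 reads. At the same level the other libraries would have shown 14.5 to 58.3 reads of each. The 12 that had their reads in another library would have shown 1.40 to 13.3 reads elsewhere. For all of these but miR-6922-5p, the number that would have shown in HS replicate 1 was under its limit of 3 reads.

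An older mirtron of the list was read more deeply. miR-877, named before this block and also made from a short intron, had 31 and 82 reads of its 5p arm in the controls and 15 and 43 in HS. Its 3p arm had 47 and 64 reads in the controls and 7 and 68 in HS. Summed over the 4 libraries, each of these 2 arms alone (171 and 186 reads) exceeded any member of the block, and each was found in all 4. In HS replicate 1 by itself, miR-7043-3p (23 reads) and miR-7013-3p (16) were above both arms. miR-702-5p had 0, 5, 4 and 7 reads and miR-702-3p 1, 7, 0 and 4, at levels like those of the members.

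The reads of the members were richer in G and C than those of all listed names outside the block. Weighted by reads, their GC content was 58.0% and 56.6% in the controls and 55.0% and 54.8% in HS. Over the listed names outside the block it was 46.8%, 48.1%, 50.2% and 48.9%. This held in every library, and the gap was widest in control replicate 1. Counted by name, the median GC was 54.5% in the members and 50.0% in the listed names outside the block. In the listed names from miR-1000 to miR-6895 it was 55.0%, so the members did not stand apart from these. A sequence was at hand for 497 of the 603 names (82.4%).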

How the data were processed

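Small RNA of BV2 exosomes was sequenced in 2 control and 2 HS libraries. According to the study's methods, the authors trimmed adapters, dropped reads that were under 17 nt or of low quality, and aligned the remainder to the genome with bowtie. The deposited signal values, 1 per miRNA name and library under the heading RPKM, were read counts over size factors of 1.20 and 1.48 in the controls and 0.414 and 1.51 in HS. Divided by the smallest value above 0 in its library, 100% came out whole within 0.0001 reads. Genome build, annotation release and counting rule are not given in the sources used here. Reads shared by similar names could have been split in ways that cannot be seen.

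Since the values are normalized, limma 3.58.1 in R 4.3.3 was fitted to log2 of the normalized count plus 1 over names with at least 10 reads, with Benjamini-Hochberg adjustment. DESeq2 1.42.0 and edgeR 4.0.16 on recovered reads, pseudocounts of 2 and 5, no minimum, scaling by total reads, TMM, a replicate block and leaving out each library were alternatives. All tested members are named, with those of at least 5 reads in 1 library and the precursors with both arms. The members and lists were chosen with earlier results of these data known. Fits were tested on data simulated at greater depth than the real libraries, so that test does not cover counts as low as those of the members. Sequences came from RefSeq GRCm38.p6 and introns from GENCODE M21. Tables were made with Python 3.11.15.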

Additional observations from a re-analysis of the deposited data

How the results depend on the processing

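Directions of the 16 tested members were kept under every alternative that used all 4 libraries. Of 192 alternative values for them, 157 kept direction and call. The number meeting the study's criterion was 5, and was 0 with a pseudocount of 5, 1 with DESeq2, 1 with edgeR and 4 to 7 with 1 library left out. The labels give both groups replicates 1 and 2 but no pairing, and deviations of same-numbered libraries had a correlation of −0.0973. With the replicate block 3 members met the criterion (miR-7068-5p, miR-6952-3p and miR-6945-3p), and 19 of all names against 31. The count over all names was 16 with a pseudocount of 5 and 113 without HS replicate 2. The median over all names moved by 0.12 and 0.32 with pseudocounts of 2 and 5, by 0.27 with DESeq2 and by 0.32 with edgeR.

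With 1 library left out, the median log2 fold change of members ranged from −0.99 to 2.88, that of miR-6900-3p from −1.26 to 2.90, miR-6965-3p from −1.48 to 2.87, miR-7060-5p from −0.71 to 3.64 and miR-7068-3p from −2.01 to 0.31. miR-7013-3p and miR-7059-5p were called without HS replicate 2. Counted as more than 3 reads, detection was 10 in control replicate 1 and 8 in HS replicate 2. With the 10 most abundant miRNAs taken from the total, member shares were 0.167%, 0.231%, 0.671% and 0.117%. Without miR-7043-3p the share of HS replicate 1 was 0.252%. Over precursors with both arms listed, the 5p share was 0% in control replicate 1 and 100% in HS replicate 1. Without HS replicate 1, chosen after seeing the data, 12 members were read in HS only. The causes were not tested. With 2 libraries a group and few reads per member, these data bound changes loosely.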
